A study of Mus musculus with 12 samples.

Results

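The comparison described here is the line by treatment interaction of anti-PD-1: for each gene, the response to the antibody in tumours of the resistant line minus the response in tumours of the parental line. It used 12 of 12 arrays, 3 in each of 4 groups, and tested 15493 of 18193 genes, each read by 1 probe set. 344SQ is a mouse lung adenocarcinoma line. Either 344SQ_Parental cells (labelled Sen) or 344SQ_anti-PD-1 resistant cells (labelled Res) were placed under the skin of the flank of female 129sv/ev mice. The mice received anti-PD-1 or control IgG at 10 mg/kg on days 4 and 7, and whole tumours were taken on day 11. As far as the labels say, all 4 groups share strain, sex, site, dose and times, and differ in the injected line and the antibody. The labels name 5 mice per group and do not say which mice stand behind each array, so p-values measure the spread between these arrays, which may be technical. The labels used here do not give how the resistant line was made or whether it is 1 clone.

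PD-1 is an inhibitory receptor on activated T cells, and antibodies that block it restore T cell activity against tumours whose cells carry its ligand. Interferon gamma from T cells raises antigen presentation and chemokine genes in tumour and myeloid cells. Immediate early genes encode transcription factors and feedback phosphatases that are transcribed within minutes of a growth factor, cytokine or stress signal, without new protein synthesis. IL-6 family cytokines and prostaglandins come from inflamed stroma and tumour cells, and the arrays read all of these cells together.

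No single gene passed the test of a different response to anti-PD-1 in the lines, while immediate early, inflammatory and vessel genes leaned to the negative side and respiratory chain genes to the positive side. The gene lists were chosen with earlier results of these data known. List counts set beside those of all genes are therefore a description, not a test. A negative interaction means a lower value of the antibody response in resistant tumours than in parental tumours, and a positive one the opposite. In limma's moderated test with Benjamini-Hochberg adjustment, 0 of 15493 genes (0%) had an adjusted p under 0.05, and the smallest adjusted p was 0.101, shared by 9 genes. At an unadjusted p under 0.05 there were 2713 genes (17.5%), of which 1667 (10.8%) were positive and 1046 (6.75%) negative. The median over all genes was 0.033 on the log2 scale, and the median standard error of the interaction was 0.166. An interaction of at least 2-fold was measured for 531 genes, 279 of them among the negative and 72 among the positive genes at an unadjusted p under 0.05.

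The same test within the parental line called 191 genes higher (1.23%) and 351 lower (2.27%) with anti-PD-1, and within the resistant line called 0 (0%) in each direction, with 738 (4.76%) at an unadjusted p under 0.05. The parental count depended on single arrays. It was 542 with all arrays, 9 without parental IgG array 3, 11 without parental IgG array 2 and 57 without parental anti-PD-1 array 3. It was 712 without parental anti-PD-1 array 1 and 918 with array weights. Genes said below to rise or fall in the parental line are calls with all 12 arrays. A call in one line and none in the other is not a test of their difference, which is the interaction. Among the negative genes at an unadjusted p under 0.05, the median response was 0.46 in parental tumours and -0.21 in resistant tumours. Among the positive ones it was -0.36 and 0.12. Choosing genes by a difference favours opposite signs on its own, so these medians are a description. Across all genes, whose values come from the same 12 arrays, the responses of the lines (which share no array) had a Pearson correlation of -0.346 and a Spearman correlation of -0.221, given as a description.

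**Figure D1:**
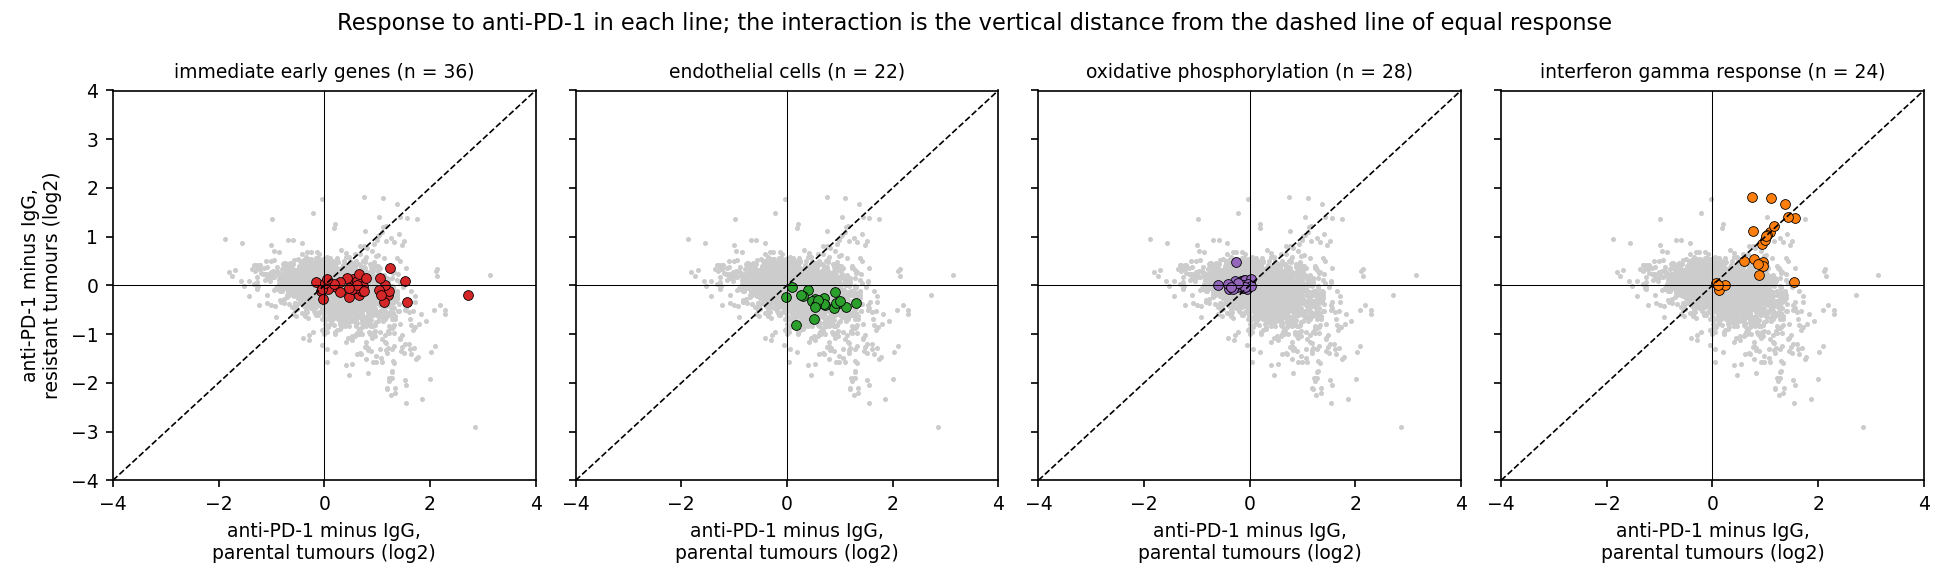
Response to anti-PD-1 (mean of anti-PD-1 arrays minus mean of IgG arrays, log2) in parental tumours on the horizontal axis and in resistant tumours on the vertical axis, 1 point per gene. Grey points are all 15493 genes, coloured points the members of 4 lists, and the dashed line marks equal responses. Immediate early genes and endothelial genes lie mostly to the right of the dashed line (median parental response 0.62 and 0.57, resistant -0.05 and -0.34). The medians of the interferon gamma genes lie nearer to it (0.94 and 0.70), with 18 of 24 genes to its right.

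2 arrays stood apart in earlier work on these data, parental IgG array 1 and parental anti-PD-1 array 3, and values without both are given where a result rests on them. Parental IgG array 1 had a mean mature muscle level of 5.94 against 9.52 and 8.82 on the other parental IgG arrays, and an interferon gamma response level of 7.17 against 8.90 and 8.93. Parental anti-PD-1 array 3 had a mean neutrophil level of 7.91, against 5.35 to 7.02 on the other arrays. The epithelial markers Epcam, Cdh1, Krt8, Krt18 and Krt19 were above the dim value (3.32) on all 12 arrays, with Krt8 between 13.06 and 13.52. The lung markers Nkx2-1 (3.78 to 4.16) and Sftpc (4.25 to 5.08) lay near the low end. Skeletal muscle genes were high on most arrays, with Acta1 between 8.33 and 13.05. The 3' minus 5' difference of the Gapdh control probe sets, a sign of RNA quality, was 0.21 ± 0.075 and 0.32 ± 0.093 in parental IgG and anti-PD-1 tumours and 0.037 ± 0.061 and 0.033 ± 0.055 in resistant ones (SD, n = 3 each). Its own interaction was -0.11, and its part in the results was not tested.

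Immediate early genes lay mostly on the negative side. Of the 36 listed genes, all tested, 33 had a negative interaction (45.2% of all genes did) and 23 of these were at an unadjusted p under 0.05, beside 6.75% of all genes, with 0 positive. Their median interaction was -0.63, against 0.033 over all genes, made of a median response of 0.62 in parental and -0.05 in resistant tumours. In the parental line alone 16 of the 36 rose, beside 1.23% of all genes, and in the resistant line none passed the test. Without both arrays that stand apart the median was -0.56 and 22 were negative at an unadjusted p under 0.05, beside 4.99% of all genes.

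Fosb encodes a partner of Jun proteins in the AP-1 transcription factor, which also holds the product of Fos. On arrays 1, 2 and 3 in turn, Fosb was at 5.29, 4.92 and 4.86 in parental IgG tumours, 7.35, 8.44 and 7.44 in parental anti-PD-1 tumours, 4.29, 4.87 and 4.37 in resistant IgG tumours and 4.34, 4.78 and 3.84 in resistant anti-PD-1 tumours (log2). The 3 parental anti-PD-1 arrays lay above all 9 others, and the resistant groups overlapped. The interaction was -2.91 (SE 0.43), a 7.52-fold lower response in the resistant line, with a limma adjusted p of 0.101. Fos was at 9.79, 10.04 and 10.07 in parental IgG tumours, 11.23, 11.65 and 11.63 with anti-PD-1, 8.75, 8.26 and 8.52 in resistant IgG tumours and 8.28, 8.61 and 8.90 with anti-PD-1. It too was highest on the parental anti-PD-1 arrays and overlapped in the resistant line, with an interaction of -1.45 (SE 0.25, limma adjusted p = 0.116).

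Atf3 encodes a stress-induced factor of the ATF family. It was at 6.94, 6.90 and 7.21 in parental IgG tumours, 8.11, 9.01 and 8.62 with anti-PD-1, 7.18, 6.77 and 6.99 in resistant IgG tumours and 6.54, 6.72 and 6.66 with anti-PD-1. The parental groups did not overlap, with anti-PD-1 above IgG, and the resistant groups did not overlap either, with anti-PD-1 below IgG. Of all genes, 82 (0.529%) had that pattern without overlap in both lines, and 2 of the 36 early genes did. A further 130 genes (0.839%) were higher and 51 (0.329%) lower with anti-PD-1 in both lines without overlap. The interaction of Atf3 was -1.90 (SE 0.27, limma adjusted p = 0.101). Dusp1, a phosphatase that switches off MAP kinases, was at 9.11, 9.37 and 9.68 in parental IgG tumours, 10.26, 10.48 and 10.80 with anti-PD-1, 9.40, 8.70 and 9.20 in resistant IgG tumours and 8.83, 8.84 and 8.63 with anti-PD-1. Its parental groups did not overlap, its resistant groups did, and the interaction was -1.46 (SE 0.28, limma adjusted p = 0.116).

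The IL-6 list (IL-6 family cytokines and receptors, prostaglandin enzymes and inflammatory cytokines) leaned the same way. All 22 tested genes had a negative interaction (45.2% of all genes did), 15 of them at an unadjusted p under 0.05, beside 6.75% of all genes. The median was -0.78, made of 0.70 in parental and -0.14 in resistant tumours. Of these 22, 5 rose in the parental line, beside 1.23% of all genes. Without both arrays that stand apart, 9 were negative at an unadjusted p under 0.05, beside 4.99% of all genes, and the median was -0.56. Il6, the cytokine that signals through gp130 and Stat3, was at 4.39, 5.18 and 4.98 in parental IgG tumours, 6.06, 7.11 and 8.26 with anti-PD-1, 5.76, 4.96 and 5.73 in resistant IgG tumours and 4.49, 5.08 and 5.34 with anti-PD-1. Its parental groups did not overlap and its resistant groups did. The interaction was -2.81 (SE 0.66, limma adjusted p = 0.136) and -2.02 without both arrays that stand apart. Ptgs2, the inducible enzyme of prostaglandin synthesis, was at 8.95 to 9.12 in parental IgG tumours and 9.99 to 10.44 with anti-PD-1, and at 9.50 to 9.88 and 9.40 to 9.99 in the resistant groups. Its interaction was -1.14 (SE 0.23, limma adjusted p = 0.116). Socs3, a feedback inhibitor of IL-6 signalling, had an interaction of -0.75, and Nfkbia, the inhibitor of NF-kB, one of -1.07.

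Promoter windows are shown for the early genes Fosb, Fos and Dusp1 and for Il6, since these moved together in parental tumours and carry named response elements. Each runs from 250 bases before to 50 bases after the start of the RefSeq transcript (build GRCm38.p6), written 5' to 3' on the gene's strand, with the found motif in capitals. Fosb lies at chr7:19309996-19310295 on the minus strand (NF-kB motif 188 to 179 bases before the start), Fos at chr12:85473640-85473939 on the plus strand (NF-kB motif 214 to 205 bases before), Dusp1 at chr17:26508423-26508722 on the minus strand (CRE 143 to 136 bases before) and Il6 at chr5:30012864-30013163 on the plus strand (AP-1 motif 249 to 243 and NF-kB motif 44 to 35 bases before).
Fosb: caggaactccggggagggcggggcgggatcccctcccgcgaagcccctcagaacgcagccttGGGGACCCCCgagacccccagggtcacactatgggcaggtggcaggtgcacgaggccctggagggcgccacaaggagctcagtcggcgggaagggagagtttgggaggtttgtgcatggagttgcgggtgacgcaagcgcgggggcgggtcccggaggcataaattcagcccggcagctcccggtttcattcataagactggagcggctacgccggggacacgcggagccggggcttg
Fos: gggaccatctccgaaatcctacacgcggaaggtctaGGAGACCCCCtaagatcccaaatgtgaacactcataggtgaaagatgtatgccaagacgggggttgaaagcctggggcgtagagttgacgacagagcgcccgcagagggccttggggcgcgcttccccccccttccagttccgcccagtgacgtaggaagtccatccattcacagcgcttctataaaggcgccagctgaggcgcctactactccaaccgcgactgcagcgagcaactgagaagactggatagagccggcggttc
Dusp1: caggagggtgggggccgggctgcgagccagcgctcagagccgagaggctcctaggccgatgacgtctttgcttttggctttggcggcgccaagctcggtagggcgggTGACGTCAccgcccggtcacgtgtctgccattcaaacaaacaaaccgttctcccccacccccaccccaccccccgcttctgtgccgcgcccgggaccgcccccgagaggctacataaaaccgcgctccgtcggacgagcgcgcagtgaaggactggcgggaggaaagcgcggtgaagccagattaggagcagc
Il6: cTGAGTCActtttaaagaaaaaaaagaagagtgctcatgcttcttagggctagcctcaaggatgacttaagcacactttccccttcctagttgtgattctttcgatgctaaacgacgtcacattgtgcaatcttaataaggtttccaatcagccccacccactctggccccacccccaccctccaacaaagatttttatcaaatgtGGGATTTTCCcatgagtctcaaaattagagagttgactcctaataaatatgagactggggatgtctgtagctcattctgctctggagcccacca
The CRE, TGACGTCA, is bound by CREB and ATF factors, the AP-1 site, TGACTCA, by Fos and Jun proteins, the CArG box by serum response factor, and the NF-kB site by NF-kB. On both strands, the CRE was in 3 of the 27 early genes with a window (11.1%, against 1.79% of all 32851 windows), the CArG box in 3 (11.1% against 1.63%), the NF-kB motif in 8 (29.6% against 8.46%) and the AP-1 site in 0 (against 5.2%). Of the 19 IL-6 list genes with a window, 5 held the AP-1 site (26.3%), 7 the NF-kB motif (36.8%) and 0 the CRE or the CArG box. Some genes have several windows (32851 windows for 27025 genes). A listed gene was counted if any of its windows matched, while the share over all is per window. The shares thus differ in unit, which favours the listed genes, and a match is a description of these letters only.

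**Figure D2:**
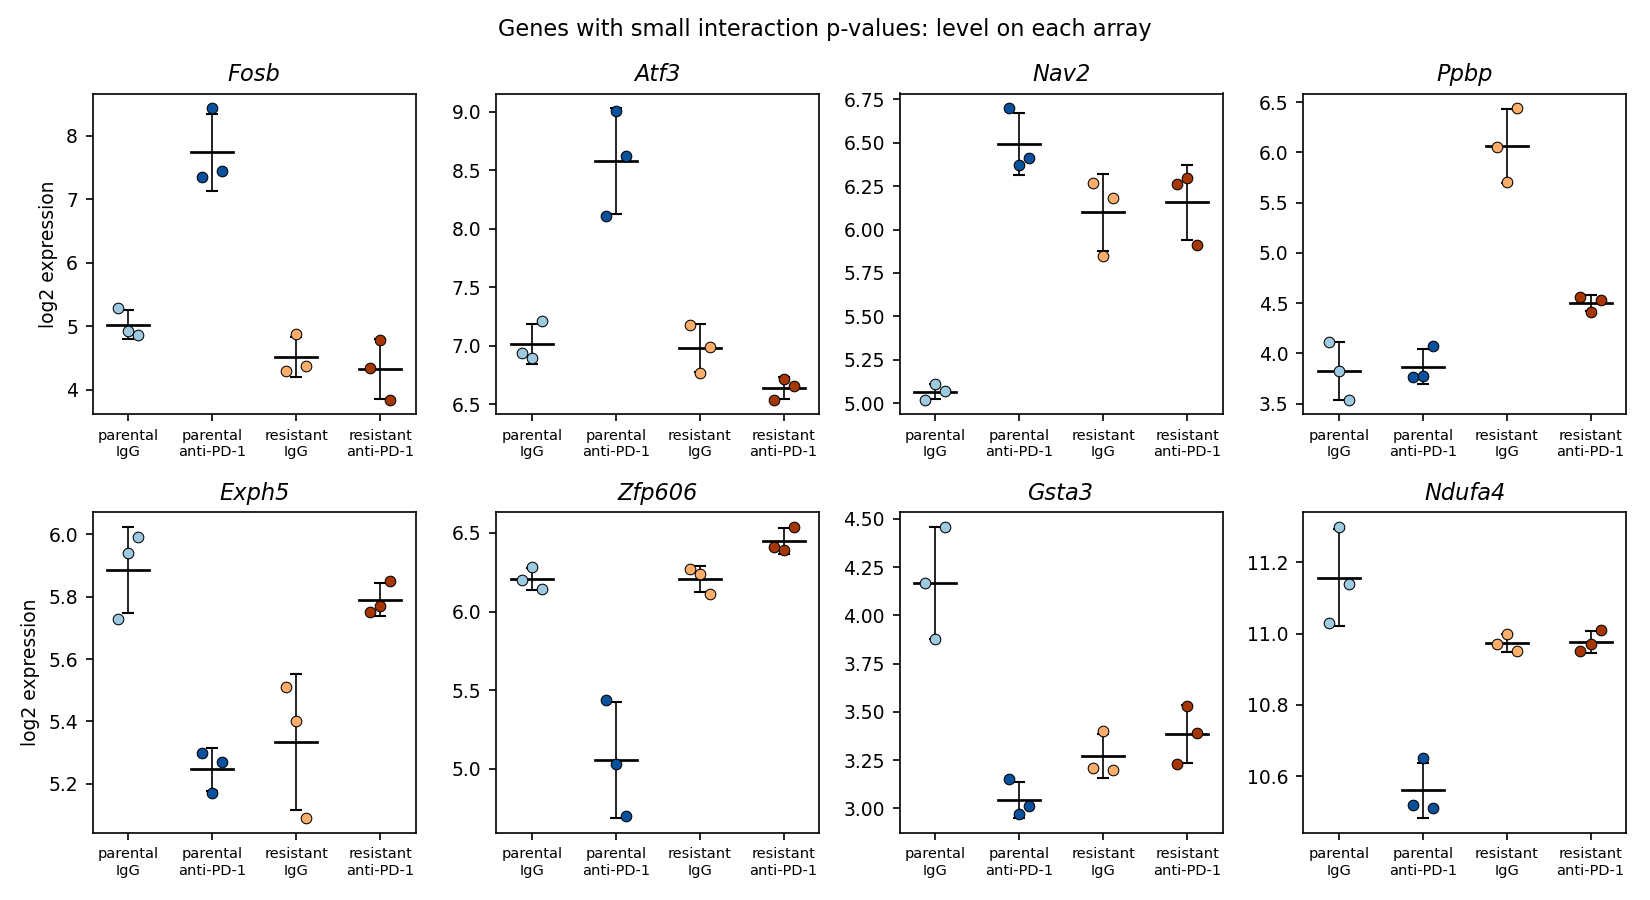
Level of 8 genes (log2, vertical axis, its range set per gene) on each array in the 4 groups; points are arrays, bars the mean and SD of 3. Fosb, Atf3 and Nav2 differ mostly between the parental groups (Fosb 4.86 to 5.29 with IgG and 7.35 to 8.44 with anti-PD-1), Ppbp between the resistant groups (5.70 to 6.44 and 4.41 to 4.56), and Exph5 in opposite directions in the lines.

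The remaining genes of smallest p on the negative side came from several functions. Nav2, a cytoskeletal protein of neuron growth, was at 5.02, 5.11 and 5.07 in parental IgG tumours, 6.70, 6.37 and 6.41 with anti-PD-1, 6.27, 5.85 and 6.18 in resistant IgG tumours and 6.26, 6.30 and 5.91 with anti-PD-1. Parental IgG tumours were thus below all other arrays, and the interaction was -1.37 (SE 0.20, limma adjusted p = 0.101), while 2 of its 7 other probe sets had the opposite sign. Ppbp, a chemokine precursor stored in platelets and made by some myeloid cells, differed from the rest in where the difference lay. It was at 4.11, 3.82 and 3.54 in parental IgG tumours, 3.76, 3.77 and 4.07 with anti-PD-1, 6.05, 5.70 and 6.44 in resistant IgG tumours and 4.56, 4.41 and 4.53 with anti-PD-1. The parental groups overlapped and the resistant ones did not, with a resistant response of -1.56 (limma adjusted p = 0.0628) and an interaction of -1.61 (SE 0.26, limma adjusted p = 0.107). Ddx23, an RNA helicase of the spliceosome (-0.73), Map1lc3a, an autophagosome protein (-0.79), Adam8, a surface protease of leukocytes and tumour cells (-1.50), Pde2a, a cyclic nucleotide phosphodiesterase (-0.92), and Cerk, ceramide kinase (-0.83), completed the 10 negative genes of smallest p, none of which passed.

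On the positive side the differences were smaller and spread over more genes. Exph5, a Rab27 effector of vesicle transport, was at 5.73, 5.94 and 5.99 in parental IgG tumours, 5.30, 5.17 and 5.27 with anti-PD-1, 5.51, 5.40 and 5.09 in resistant IgG tumours and 5.75, 5.77 and 5.85 with anti-PD-1. Neither pair of groups overlapped, and they ran in opposite directions, as for 184 of all genes (1.19%) with anti-PD-1 below IgG in parental and above it in resistant tumours. Its interaction was 1.10 (SE 0.16, limma adjusted p = 0.101). Zfp606, a zinc finger factor, was at 6.20, 6.28 and 6.14 in parental IgG tumours, 5.44, 5.03 and 4.70 with anti-PD-1, 6.27, 6.24 and 6.11 in resistant IgG tumours and 6.41, 6.39 and 6.54 with anti-PD-1. The groups again did not overlap in either line, and the interaction was 1.39 (SE 0.21, limma adjusted p = 0.101), with 1 of its 2 other probe sets of opposite sign. Prdx4, a peroxidase of the endoplasmic reticulum (0.64), and St3gal5, the sialyltransferase that makes the ganglioside GM3 (0.74), showed the same arrangement. Prdx4 was at 9.92 to 9.99 and 9.40 to 9.60 in the parental groups and 9.98 to 10.09 and 10.12 to 10.28 in the resistant ones (IgG first in each line).

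H3f3b, a gene of the replacement histone H3.3, had an interaction of 0.91, Dcun1d1, which promotes neddylation of cullins, 0.91, and Golph3l, a Golgi protein, 0.85. Dcun1d1 had 1 of its 4 other probe sets of opposite sign. Yae1d1 was at 0.80, Tbc1d32, a protein of the primary cilium, at 0.71, and Gsta3, a glutathione transferase, at 1.24. Gsta3 lay between 2.97 and 4.46 on all arrays, near the dim value of 3.32, and has close relatives that a probe set may also read. These 10 positive genes of smallest p had adjusted p-values from limma between 0.101 and 0.116, and none passed.

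Respiratory chain genes, which encode subunits of the complexes that make ATP in mitochondria, were on the positive side. Of 28 tested, 26 had a positive interaction (54.7% of all genes did), 8 of them at an unadjusted p under 0.05 beside 10.8% of all genes, and 0 were negative at that p. The median was 0.21, made of -0.15 in parental and 0.017 in resistant tumours. 3 of the 28 fell in the parental line, beside 2.27% of all genes. Without both arrays that stand apart, the median was 0.28 and 14 were positive at an unadjusted p under 0.05, beside 8.59% of all genes. Ndufa4, a subunit of the terminal oxidase, was at 11.03, 11.30 and 11.14 in parental IgG tumours, 10.52, 10.65 and 10.51 with anti-PD-1, 10.97, 11.00 and 10.95 in resistant IgG tumours and 10.95, 10.97 and 11.01 with anti-PD-1. Only the parental anti-PD-1 arrays were apart from the rest for this gene, and the interaction was 0.60 (SE 0.11, limma adjusted p = 0.116). Cox7c, another subunit of that enzyme, differed instead in the resistant line, at 6.06 to 6.11 with IgG and 6.54 to 6.59 with anti-PD-1, while its parental groups overlapped. Its interaction was 0.74 (SE 0.15, limma adjusted p = 0.119). The ATP synthase subunits Atp5a1 and Atp5c1 had interactions of 0.36 and 0.43.

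Fatty acid oxidation genes followed with smaller values. Of 18 tested, 15 were positive, 4 at an unadjusted p under 0.05 and 0 negative at that p, with a median of 0.15. Over all genes, 10.8% were positive and 6.75% negative at that p. Echs1, the hydratase of beta-oxidation, was at 9.13 to 9.22 and 8.64 to 8.81 in the parental groups and 9.30 to 9.63 and 9.41 to 9.50 in the resistant ones, with an interaction of 0.50. Etfdh and Etfa, which pass electrons from this pathway to the respiratory chain, were at 0.41 and 0.43, and the thiolase gene Acaa2 at 0.51. Fatty acid and sterol synthesis genes had a median of 0.34 with 0 positive and 1 negative of 21 at an unadjusted p under 0.05 (Acacb, an acetyl-CoA carboxylase, -0.73). That median was 0.053 without both arrays that stand apart. DNA replication and cell cycle genes behaved likewise, with a median of 0.37 over 24, 1 positive (Pcna, the replication clamp, 0.47), and a median of 0.023 without both arrays.

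Epithelial genes lay near the background. Of 20 tested, 3 (15%) were positive at an unadjusted p under 0.05, beside 10.8% of all genes, and 0 negative (median 0.17, and -0.023 without both arrays that stand apart). Cftr, the chloride channel of epithelia, was at 8.22, 7.62 and 7.57 in parental IgG tumours and 6.76, 6.56 and 4.86 with anti-PD-1, and at 2.64 to 2.90 and 2.87 to 3.12 in the resistant groups. The resistant arrays were all below the dim value of 3.32 for this gene, so its interaction of 1.93 (SE 0.56, limma adjusted p = 0.168) rests on the parental arrays, and it was 1.12 without both arrays that stand apart. Ehf, an epithelial Ets factor, had an interaction of 1.20 and Muc1, a mucin, 0.54. Of 15 lung lineage genes 4 were positive at an unadjusted p under 0.05 (beside 10.8% of all genes), namely Gkn2, a secreted gastrokine (1.65), Foxa1, a pioneer factor of lung epithelium (0.73), the surfactant protein Sftpd (0.58) and Etv5 (0.64). The list's median was 0.037 beside 0.033 over all genes, 0.23 without parental anti-PD-1 array 3, and 0.19 without both arrays that stand apart, beside 0.013 over all genes in that setting.

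**Figure D3:**
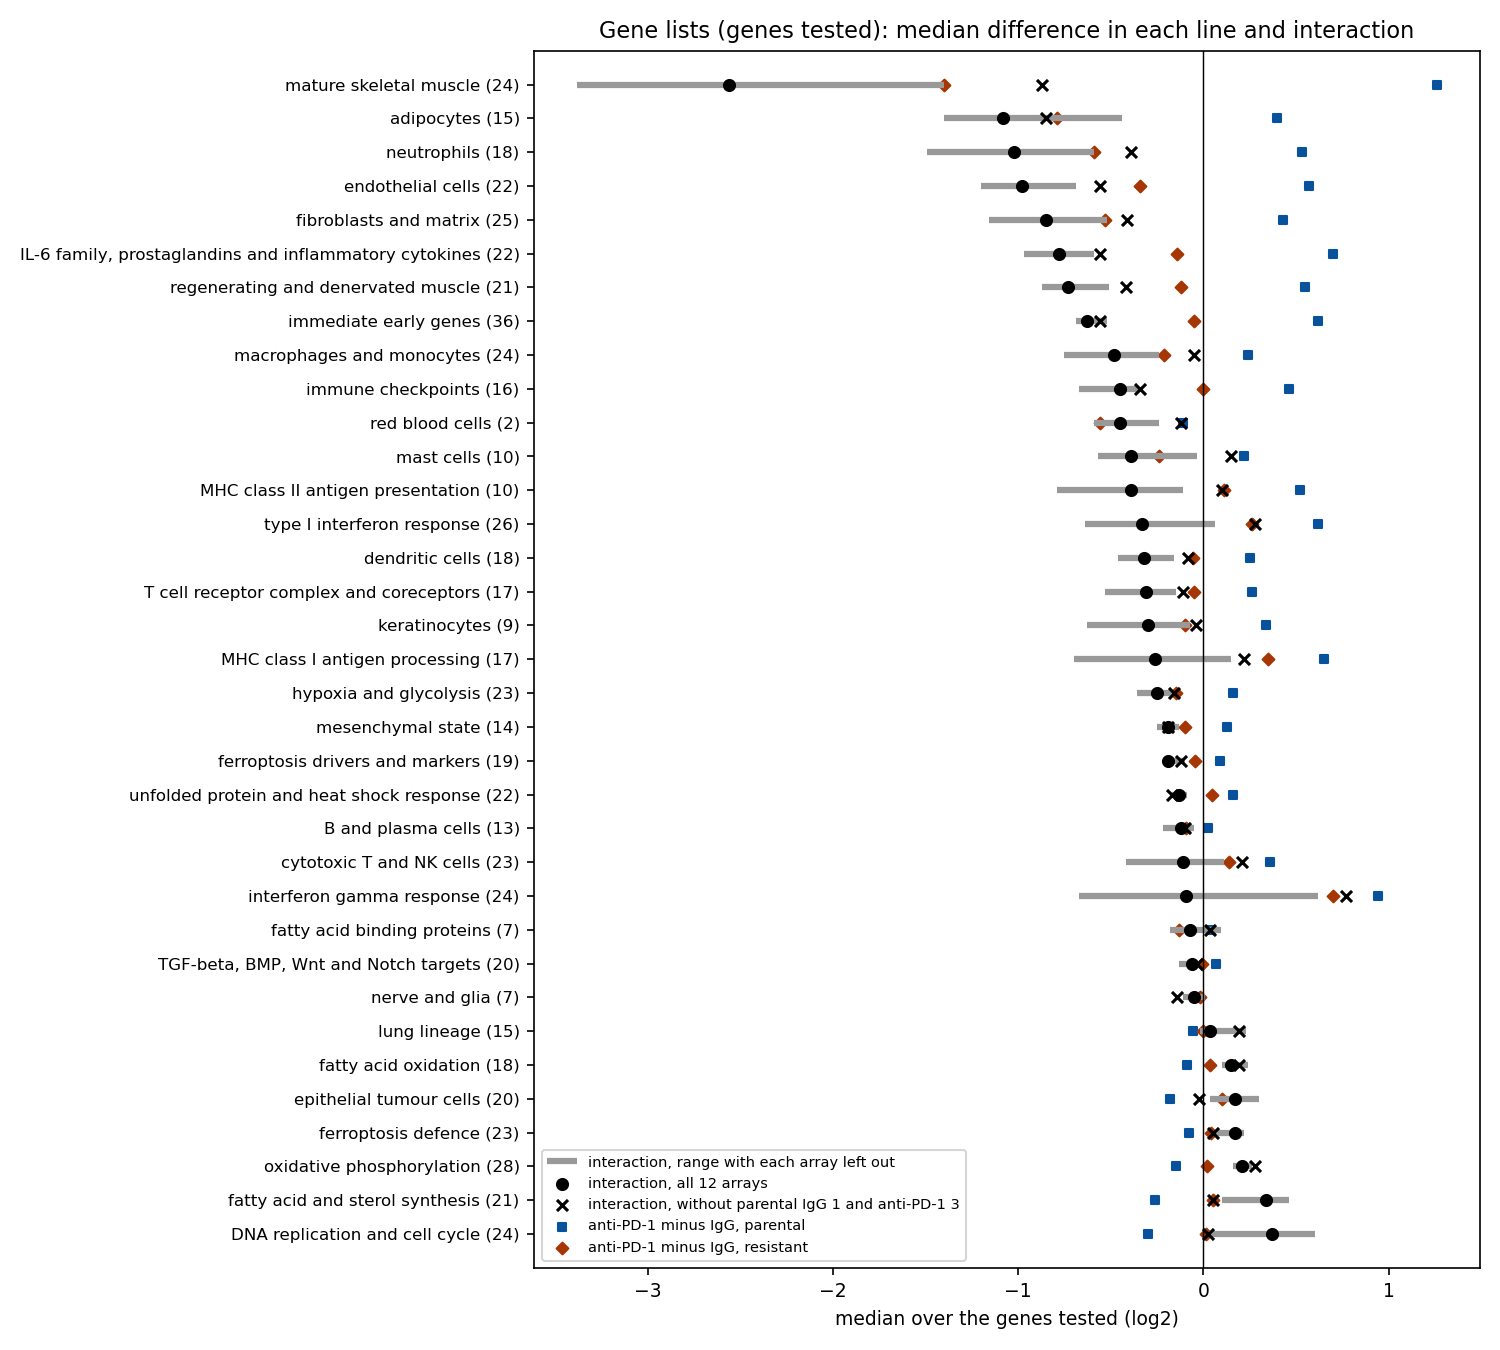
Median over the tested genes of each of 35 lists (number tested in brackets), log2. Blue squares and red diamonds are the responses to anti-PD-1 in parental and resistant tumours, black circles the interaction with all 12 arrays, grey bars its range with each array left out in turn, and crosses the interaction without both arrays that stand apart. Muscle, adipocyte, neutrophil, endothelial, fibroblast, IL-6 and immediate early lists sit on the negative side with all arrays and with each array left out; the interferon gamma list ranges from -0.67 to 0.62.

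Lists of stromal and host tissue markers lay on the negative side together. In whole tumours fewer cells of a type and less RNA per cell cannot be told apart, and the tissue taken with each tumour may differ. Mature skeletal muscle genes had a median interaction of -2.56 (1.26 in parental and -1.40 in resistant tumours). All 24 were negative, but only 2 of 24 (8.33%) were at an unadjusted p under 0.05, near the 6.75% of all genes. Array to array spread was large: Acta1, the actin of skeletal muscle, was at 8.75, 12.46 and 12.01 in parental IgG tumours, 11.73, 12.43 and 13.05 with anti-PD-1, 11.58, 11.75 and 12.15 in resistant IgG tumours and 8.33, 11.48 and 10.88 with anti-PD-1. The lowest arrays were parental IgG 1 and resistant anti-PD-1 1, and the groups overlapped in the parental but not in the resistant line. The list median was -1.40 without parental IgG array 1 and -0.87 without both arrays that stand apart. Adipocyte genes had a median of -1.08, with 4 of 15 at an unadjusted p under 0.05, beside 6.75% of all genes. The median was -0.44 without resistant IgG array 2, and 0 genes were at that p without both arrays that stand apart. Their parts in the other results were not tested.

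Sln, the sarcolipin gene of the muscle calcium pump, had the lowest interaction of all genes. It was at 5.86, 5.27 and 7.91 in parental IgG tumours, 8.47, 9.61 and 9.53 with anti-PD-1, 9.93, 9.94 and 10.54 in resistant IgG tumours and 5.43, 7.88 and 8.36 with anti-PD-1. The groups did not overlap in either line and ran in opposite directions. The interaction was -5.77 (SE 1.10, limma adjusted p = 0.116), a 54.6-fold difference between the responses. Sln belongs to the regenerating and denervated muscle list, where the median was -0.73 and 9 of 21 genes were negative at an unadjusted p under 0.05, beside 6.75% of all genes. Chrna1, the alpha subunit of the muscle acetylcholine receptor (-1.93), Myl4, an embryonic myosin light chain (-2.59), and Myog, the myogenin factor (-1.80), were among these 9 list genes. These 3 rose in the parental line, where 3 of the 21 genes passed, beside 1.23% of all genes. The median was -0.42 without both arrays that stand apart, where 6 were negative at an unadjusted p under 0.05, beside 4.99% of all genes.

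Endothelial genes, which mark blood vessels, had the highest share of small p-values among the lists. All 22 were negative (45.2% of all genes were) and 17 (77.3%) were at an unadjusted p under 0.05, beside 6.75% of all genes. The median was -0.98, made of 0.57 in parental and -0.34 in resistant tumours. The mean level of the list was 5.60, 5.97 and 5.98 on parental IgG arrays, 6.11, 6.29 and 7.01 with anti-PD-1, 6.34, 6.33 and 6.90 on resistant IgG arrays and 6.10, 6.39 and 6.04 with anti-PD-1. Anti-PD-1 arrays lay above IgG arrays in the parental line, and the groups overlapped in the resistant line. Without both arrays that stand apart, 8 genes were negative at an unadjusted p under 0.05, beside 4.99% of all genes, and the median was -0.56. Sox17 and Eng, an endothelial factor and a TGF-beta coreceptor, had interactions of -0.53 and -0.81, Egfl7, a secreted vessel protein, -1.05, and Aplnr, the apelin receptor, -1.56. None of the 22 passed in either line alone.

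Fibroblast and matrix genes were all negative (25 of 25, beside 45.2% of all genes), 10 of them at an unadjusted p under 0.05, beside 6.75% of all genes. The median was -0.85. Without both arrays that stand apart, 5 were negative at that p, beside 4.99% of all genes, and the median was -0.41. Cilp, a matrix protein of cartilage and fibroblasts, was at 5.52 to 6.77 and 7.30 to 8.55 in the parental groups and 7.41 to 7.70 and 6.39 to 7.40 in the resistant ones, without overlap in either line. Its interaction was -2.21 (SE 0.53, limma adjusted p = 0.136), and -1.54 without both arrays that stand apart. Pi16, a marker of adventitial fibroblasts, was at -1.52, Sparc, a collagen chaperone, at -1.05 and Mfap5, a microfibril protein, at -1.21. Pi16 has another probe set with the opposite sign.

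**Figure D4:**
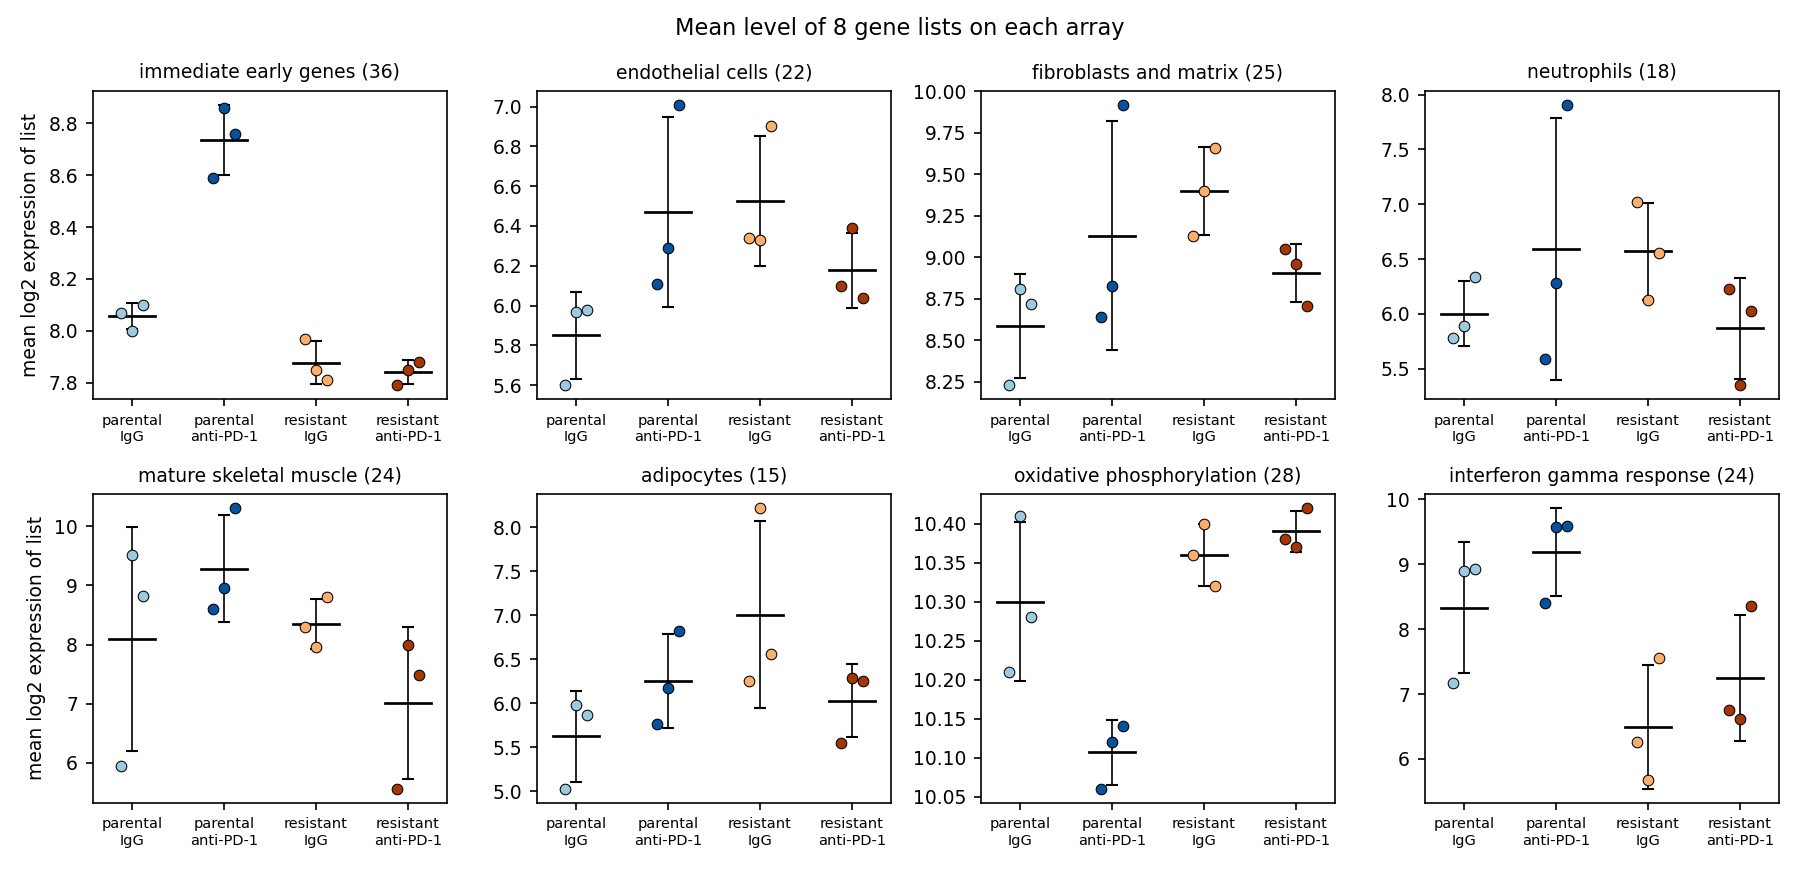
Mean level of 8 gene lists (log2 average over the tested genes, vertical axis, its range set per list) on each array; points are arrays, bars the mean and SD of 3 arrays. The immediate early list is at 8.59 to 8.86 on parental anti-PD-1 arrays and at 7.79 to 8.10 on all others, while neutrophil, muscle and interferon gamma lists spread widely within groups.

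Myeloid lists were negative with wide spread. Of 18 neutrophil genes 7 were negative at an unadjusted p under 0.05, beside 6.75% of all genes. The median was -1.02, and it was -0.59 without parental anti-PD-1 array 3 and -0.39 without both arrays that stand apart. Cxcl2, a neutrophil attractant, was at 5.71, 5.85 and 6.56 in parental IgG tumours, 5.76, 7.18 and 9.03 with anti-PD-1, 8.44, 6.22 and 7.00 in resistant IgG tumours and 6.17, 4.65 and 5.49 with anti-PD-1. The parental groups overlapped, the resistant ones did not, and the interaction was -3.07 (SE 1.08, limma adjusted p = 0.200). Cxcr2, its receptor, was at -0.83, and the myeloid receptors Trem1 and Clec4d at -0.68 and -2.16. Of 24 macrophage and monocyte genes all were negative and 5 at an unadjusted p under 0.05, beside 6.75% of all genes. The median was -0.48, and -0.05 without both arrays, where 1 gene was negative at that p, beside 4.99% of all genes. Cd163, a haemoglobin scavenger receptor of tissue macrophages, was at 6.18, 6.0 and 6.15 in parental IgG tumours, 6.33, 6.53 and 7.49 with anti-PD-1, 7.70, 8.09 and 8.03 in resistant IgG tumours and 7.38, 6.75 and 6.86 with anti-PD-1. Neither line's groups overlapped, and the interaction was -1.62 (SE 0.38, limma adjusted p = 0.135). Csf1r, the receptor for the macrophage growth factor, was at -1.06 and Pf4, a platelet and macrophage chemokine, at -1.22.

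Interferon gamma genes did not show a difference between the lines at this precision. Over 24 tested genes the median response was 0.94 in parental and 0.70 in resistant tumours, and the median interaction -0.095, with 0 genes at an unadjusted p under 0.05 in either direction. The interaction was negative for 18 of the 24 (45.2% of all genes), and for 4 without both arrays that stand apart. The sign depended on single arrays: the median was 0.62 without parental IgG array 1 and -0.67 without resistant anti-PD-1 array 3. It was 0.77 without both arrays that stand apart. Cxcl9, a T cell attractant induced by interferon gamma, was at 8.22, 11.34 and 11.24 in parental IgG tumours, 9.83, 11.76 and 11.47 with anti-PD-1, 6.90, 3.97 and 9.69 in resistant IgG tumours and 7.94, 7.41 and 10.67 with anti-PD-1. Its groups overlapped in both lines, and the interaction was 1.07 with an SE of 1.94. Ifng was at -0.46 (SE 0.67), the transcription factor Irf1 at -0.56 (SE 0.72) and Cxcl10, a chemokine of the same family, at -0.083 (SE 1.34). These standard errors allow differences of more than 2-fold in either direction for Cxcl9 and Cxcl10. Ifng was below the dim value of 3.32 on all resistant IgG arrays (2.86 to 3.17) and near it with anti-PD-1 (3.30 to 3.79), which limits its response in that line. The MHC class I list (median -0.26 over 17), the MHC class II list (-0.39 over 10) and the type I interferon list (-0.33 over 26) also had 0 genes at an unadjusted p under 0.05, and their medians were 0.22, 0.10 and 0.28 without both arrays. In the other direction, the MHC medians were -0.70 and -0.79 without resistant anti-PD-1 array 3. The type I median was -0.64 without parental anti-PD-1 array 1.

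T cell lists held few small p-values. Of 17 genes of the T cell receptor complex and coreceptors all were negative, with a median of -0.31. At an unadjusted p under 0.05 there was 1 (5.88%, beside 6.75% of all genes), Thy1, a surface glycoprotein (-0.74). With both arrays that stand apart left out, 14 of 17 were negative, 0 were at that p and the median was -0.11. Of 23 cytotoxic T and NK cell genes, 2 (8.7%) were at that p with all arrays, near the 6.75% of all genes that were negative. They were Gzmk, a granzyme (-1.05), and Ccl4, a chemokine of activated T cells and macrophages (-0.99). Both rose in the parental line, as did 1.23% of all genes. The median of the cytotoxic list was -0.11, and 0.21 without both arrays that stand apart. Gzmk was at 4.82 to 5.02 and 5.31 to 6.29 in the parental groups and 4.98 to 5.18 and 4.73 to 5.03 in the resistant ones, so that only the parental groups were apart.

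Among checkpoint genes, 4 of 16 were negative at an unadjusted p under 0.05, beside 6.75% of all genes, and 0 positive (median -0.45, and -0.34 without both arrays that stand apart). They were Tnfrsf4, the costimulatory receptor OX40 (-0.46), Nt5e and Entpd1, enzymes that make adenosine from ATP (-0.65 and -0.98), and the inhibitory receptor Btla (-0.83). Cd274, which encodes the PD-1 ligand PD-L1, was at 5.71, 7.04 and 7.34 in parental IgG tumours, 7.06, 8.62 and 9.04 with anti-PD-1, 5.30, 4.95 and 5.52 in resistant IgG tumours and 5.20, 4.66 and 6.12 with anti-PD-1. The groups overlapped in both lines, and the interaction was -1.47 (SE 0.78, limma adjusted p = 0.346) and -0.58 without both arrays that stand apart. Pdcd1, the gene of PD-1, was at 3.06 to 3.62 in parental IgG, 3.12 to 4.49 in parental anti-PD-1 and 2.83 to 3.18 in resistant tumours, below the dim value on all resistant arrays, with an interaction of -0.52 (SE 0.39).

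The series title concerns fatty acid binding proteins, which carry fatty acids inside cells, and ferroptosis, a death by lipid peroxidation. Of 7 tested Fabp list genes 1 was at an unadjusted p under 0.05, Fabp4, the adipocyte and endothelial form. Fabp4 was at 5.33, 8.95 and 8.53 in parental IgG tumours, 8.13, 9.32 and 10.70 with anti-PD-1, 9.17, 11.66 and 10.37 in resistant IgG tumours and 8.35, 9.34 and 9.12 with anti-PD-1. The groups overlapped in both lines, and the interaction was -3.24 (SE 1.34, limma adjusted p = 0.252), and -1.45 without both arrays that stand apart. The adipocyte genes Adipoq (-4.19) and Car3 (-3.59) had values of the same sign, and the part of adipose tissue in the value of Fabp4 was not tested. Fabp5, the epithelial form, was at 10.79, 10.98 and 10.89, then 10.40, 10.76 and 10.75 in the parental groups, and at 9.53, 9.59 and 10.22, then 9.71, 9.13 and 9.54 in the resistant groups. Its interaction was -0.07 (SE 0.28), with its sign dependent on the setting. Fabp3, the muscle form, was at -1.49 (SE 0.87), Fabp7, the brain form, at 1.00 (SE 0.75), Fabp6 at 0.21, Fabp12 at 0.093 and Pmp2, the myelin form, at -0.18. None had an adjusted p under 0.05. Fabp3 and Fabp5 each had 1 other probe set of opposite sign. Fabp7 was below the dim value of 3.32 on all parental arrays (2.66 to 3.24), so its interaction rests on the resistant arrays. Fabp6 (3.05 to 3.50) and Fabp12 (3.26 to 3.56) lay near the dim value on all arrays.

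Ferroptosis genes had mixed signs, and their medians and counts of small p-values changed with the arrays that stand apart. Of 23 defence genes 4 were positive and 3 negative at an unadjusted p under 0.05 (median 0.17), and of 19 driver and marker genes 1 was positive and 5 negative (median -0.19). Over all genes, 10.8% were positive and 6.75% negative at that p, and 8.59% and 4.99% without both arrays that stand apart. With both arrays that stand apart left out, the defence list had 2 positive and 2 negative genes at that p and a median of 0.05, and the driver list 2 positive and 1 negative with a median of -0.12. The defence median was 0.063 without parental anti-PD-1 array 3. Slc3a2, the heavy chain of the cystine importer, was at 8.69 to 8.88 and 9.17 to 9.44 in the parental groups and 9.14 to 9.26 and 9.10 to 9.14 in the resistant ones. It rose in the parental line, and the interaction was -0.59 (SE 0.13, limma adjusted p = 0.124). Nfe2l2, the gene of the antioxidant factor NRF2, fell in the parental line and had an interaction of 0.44 (SE 0.11, limma adjusted p = 0.150), with its other probe set of opposite sign. Gclc, the catalytic subunit of the first enzyme of glutathione synthesis, was at 0.62, and Hmox1, haem oxygenase, at -1.21. Gpx4, the peroxidase that removes lipid peroxides, was at 0.17 (SE 0.12), Slc7a11, the transporting chain of the cystine importer, at -0.48 (SE 0.40) and Acsl4, an acyl-CoA synthetase that loads membranes with oxidisable lipids, at 0.063 (SE 0.16), none of them at an unadjusted p under 0.05. Gpx4 and Acsl4 each had 1 other probe set of opposite sign.

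The number of genes called depended on how arrays were weighted. Giving each array a weight estimated from its spread called 121 genes, 79 positive and 42 negative, and these included all 20 genes of smallest p named above. Leaving out parental anti-PD-1 array 1 called 78 genes, 23 positive and 55 negative, including 17 of those 20, and leaving out each other array called 0 or 1. The estimated weights ranged from 0.234 for parental anti-PD-1 array 3 to 2.93 for resistant IgG array 1.

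**Figure D5:**
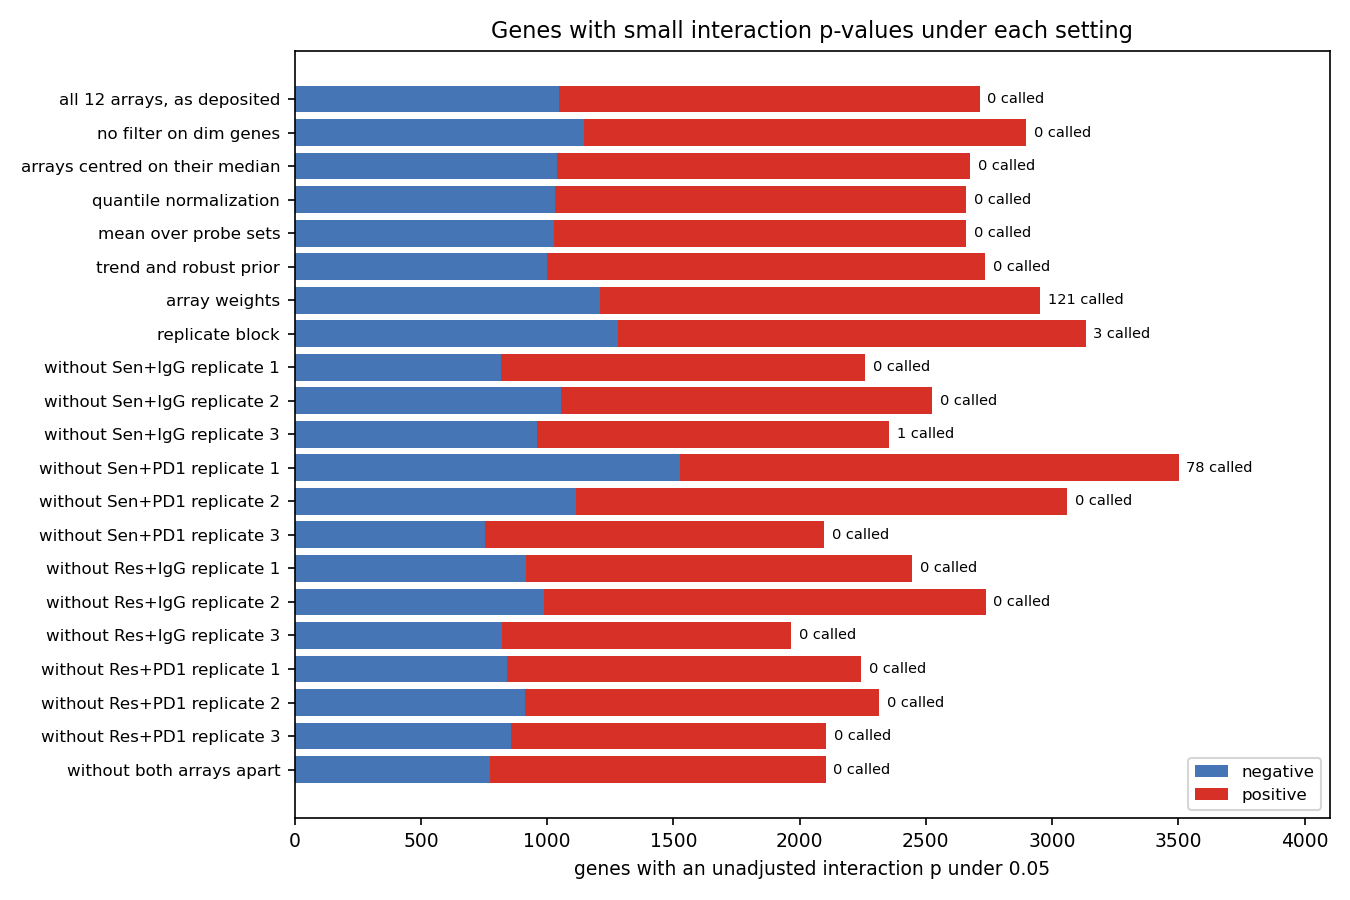
Number of genes with an unadjusted interaction p under 0.05 (bar length, blue negative and red positive) under each setting, with the number at an adjusted p under 0.05 written beside the bar. The counts of small p-values stay between 1967 and 3502, while the number called is 121 with array weights, 78 without parental anti-PD-1 array 1 (Sen+PD1 replicate 1), 3 with the replicate block, 1 without Sen+IgG replicate 3 and 0 elsewhere.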

How the data were processed

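Total RNA of whole tumours was hybridised to Affymetrix mouse expression arrays, per the labels' protocols. The deposited table holds log2 values of 45101 probe sets on 12 arrays, taken from the authors' processing; no source at hand names how they were summarised and normalized, and the log2 scale was read from the values (1.62 to 13.88, array medians 4.75 to 4.89). The platform annotation gave 34945 probe sets 1 gene, 932 several and 9160 none, with 64 controls left out; symbols of 34741 probe sets were updated by gene number. Of several probe sets the one with the highest mean was kept (18193 genes). Genes above the 25th percentile of all values (3.32, the dim value) on at least 3 arrays were tested (15493). limma 3.58.1 (R 4.3.3) fitted 1 mean per group, with 8 residual and 2.98 prior degrees of freedom, and Benjamini-Hochberg adjustment over all tested genes at 0.05. Arrays correlated at 0.959 to 0.997, and none were identical. The number of arrays limits the precision: the median standard error was 0.166 for the interaction and 0.117 within a line. The scripts were tested on simulated data. List counts and medians carry no test. The members, gene lists and the 2 arrays that stand apart were chosen with earlier results of these data known. Genes named are the 10 smallest p-values in each direction, since none was called, a set of genes fixed by name, and up to 4 members of smallest p in each list; predicted and clone names and receptor segments were passed over. List genes without a probe set of 1 gene are not analysed here. Promoter sequences are RefSeq's. Alternatives were no filter on dim genes, arrays centred on their median, quantile normalization, the mean over probe sets, a trended and robust prior, array weights, the replicate block, each array left out, and both arrays that stand apart left out.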

Additional observations from a re-analysis of the deposited data

How the results depend on the processing

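With all 12 arrays 0 genes were called. That count was also 0 without the dim filter, with arrays centred on their median, with quantile normalization, with the mean over probe sets, with the trended and robust prior and without both arrays that stand apart, 121 with array weights, and between 0 and 78 with each array left out; the 1 gene called without parental IgG array 3 was Tspan1, named after its values were seen. Deviations of same-numbered arrays correlated between -0.208 and 0.636. Of the 18 same-numbered pairs 16 were above 0 and 14 above 0.1, against 10 of the 36 pairs of different number above 0, and 8 of 12 arrays correlated best with an array of their own number, a hint from the data, not the design. Deviations from a group mean sum to 0 in each group, so positive same-numbered pairs push the other pairs below 0. These counts are therefore not independent of each other. Since the labels name nothing shared and not every pair was above 0.1, the numbers were not taken to pair the arrays. A fit with the replicate number as a block called 3 genes, Ptx3, Chl1 and Fosb, named after their values were seen. Among the genes named by rule, none called with all arrays, the sign changed as follows. With the mean over probe sets, Mbp (myelin basic protein) was at -0.21, Acsl4 at -0.053 and Fabp5 at 0.26. With array weights, Krt5 was at 0.014, Acsl4 at -0.037, Fabp5 at 0.10 and Cxcl10 at 0.56. Without both arrays that stand apart, Tpsab1 was at 0.018, Irf8 at 0.015, Ctss at 0.015, Irf1 at 0.15, H2-Oa at 0.040, H2-Ab1 at 0.085, Ifng at 0.11, Acsl4 at -0.037, Fabp5 at 0.035 and Cxcl10 at 0.87. With each array left out in turn, Ifng ranged from -0.88 to 0.11, Cxcl9 from -0.37 to 2.48, Acsl4 from -0.068 to 0.16, Fabp5 from -0.20 to 0.15 and Cxcl10 from -0.95 to 0.71. The cause of these changes was not tested. Of the alternative values of list medians, 35 differed and 665 did not differ from the main one by more than the spread between arrays. Genes near the dim value, such as Gsta3, Pdcd1 and Cftr in resistant tumours, are limited by signal over background.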

Other observations

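Several groups not described above are given here with their counts of small interaction p, and none of their genes was called by limma. At an unadjusted p under 0.05, 10.8% of all genes were positive and 6.75% negative. Without both arrays that stand apart these shares were 8.59% and 4.99%. Several of the lists below lay near the shares of all genes. Of 23 hypoxia and glycolysis genes 5 were negative at an unadjusted p under 0.05 (6.75% of all genes) and 0 positive, with a median of -0.25, and -0.16 without both arrays that stand apart. The glucose transporter Slc2a1 was at 10.77, 10.58 and 10.71 in parental IgG tumours, 10.81, 11.07 and 11.49 with anti-PD-1, 10.82, 10.41 and 11.11 in resistant IgG tumours and 10.59, 10.21 and 10.18 with anti-PD-1. Its parental groups were apart, its resistant groups overlapped, and the interaction was -0.89 (SE 0.28). The hexokinases Hk1 and Hk2, which start glycolysis, had interactions of -0.39 and -0.88, and the phosphofructokinase Pfkp -0.75. Of 22 unfolded protein and heat shock genes 2 were positive and 5 negative at that p (median -0.13). Hspa1a and Hspa1b, near-identical heat shock chaperones that probe sets may not separate, were at -1.28 and -0.69, Atf4, the factor of the integrated stress response, at -0.39, and Sdf2l1, a chaperone cofactor of the endoplasmic reticulum, at 0.42.

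Of 18 dendritic cell genes 13 had a negative interaction, 3 of them at an unadjusted p under 0.05, beside 6.75% of all genes. Among these 3 were Ccr7, the receptor that guides migration to lymph nodes (-1.06), and Cd209a, a lectin (-0.45). The median of the list was -0.32, and -0.083 without both arrays that stand apart. Of 10 mast cell genes 8 had a negative interaction and 1 (10%, beside 6.75% of all genes) was at an unadjusted p under 0.05, Hdc, the histamine-forming enzyme (-1.83). Without both arrays that stand apart the mast cell median went from -0.39 to 0.15 and Hdc was at -0.90. Of 13 B and plasma cell genes 1 (7.69%, near the 6.75% of all genes) was negative at that p, Cr2, a complement receptor (-0.42). Nerve and glia genes split, with 2 positive and 2 negative of 7 at that p, and 0 positive and 2 negative without both arrays: S100b, a glial calcium-binding protein (0.74), and Mbp (0.34, with 6 other probe sets of opposite sign), against Pmp22, a myelin protein (-1.52), and Scn7a, a sodium channel (-2.30). Of 14 mesenchymal genes 12 had a negative interaction and 1 (7.14%, near the 6.75% of all genes) was at an unadjusted p under 0.05, Twist2 (-0.74, and -0.31 without both arrays). Of 20 TGF-beta, BMP, Wnt and Notch targets 7 had a positive and 13 a negative interaction, with 1 of each at that p, Hes1 (0.50, and 0.28 without both arrays) and Tgfbi (-0.93 and -0.47). In either direction this was 10% of the list, below the 17.5% of all genes. The 9 keratinocyte genes and the 2 red blood cell genes tested held 0 at an unadjusted p under 0.05, with medians of -0.30 and -0.45, and -0.04 and -0.12 without both arrays.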
